A study of Mus musculus with 33 samples.

Results

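The genes described here are the 7 that encode the chains of the cartilage collagens of types II, IX, X and XI, namely Col2a1, Col9a1, Col9a2, Col9a3, Col10a1, Col11a1 and Col11a2. They were chosen by gene symbol in the deposited count table, and all 7 were among its 17120 genes. RNA sequencing covered 33 libraries of cultured mouse cells, 3 in each of 11 groups. Mouse ES cells carrying the ScxGFP reporter of the tendon factor Scleraxis were grown into embryoid bodies and specified to paraxial mesoderm (PM) with the Wnt agonist CHIR and the BMP inhibitor LDN-193189, with AGN 193109 also present in the enhanced protocol. The labels do not say whether AGN 193109 was present during PM specification for these libraries. PM was collected at day 6 of differentiation (D6) as embryoid bodies. All other groups were plated as monolayers in serum-free medium with TGFβ1, FGF2 and the hedgehog agonist SAG, plus 1 of 2 ligands. CD1530 activates the retinoic acid receptor RARγ and was used to induce tendon cells, while AGN 193109 lowers the activity of all retinoic acid receptors and was used to induce fibrocartilage cells. Induction lasted 0.25, 0.75, 1.5, 2.5 or 4 days, and the samples are named by the day of differentiation, so that D10 follows 4 days of induction. The ligands were used at different molar concentrations and none of these libraries received medium without a ligand, so a difference between the conditions cannot be divided between what CD1530 raised and what AGN 193109 lowered or the reverse. Plating, time and medium all changed between PM and the first induced samples and cannot be told apart in comparisons with PM.

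Collagens are built as helices of 3 chains in which glycine recurs at a fixed spacing. Type II collagen, made of identical Col2a1 chains, forms the main fibrils of cartilage. Type IX collagen joins 1 chain each from Col9a1, Col9a2 and Col9a3 and sits on the surface of those fibrils, while type XI collagen joins the chains of Col11a1 and Col11a2 with a product of the Col2a1 gene and lies within the fibril, where it limits its thickness. Type X collagen, made of identical Col10a1 chains, forms a network around hypertrophic chondrocytes, the enlarged cells that precede bone. The factor Sox9, with Sox5 and Sox6, switches on most of these genes in chondrocytes. Fibrocartilage, the tissue of the meniscus and the annulus fibrosus, holds type II collagen beside type I collagen.

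In the mouse genome (GRCm38, GENCODE M21 annotation) the 7 genes lie on 7 chromosomes. Col2a1 occupies chr15:97975602-98004695 on the minus strand, and the others lie on the plus strand at chr1:24177610-24252684 (Col9a1), chr4:121039385-121055322 (Col9a2), chr2:180597790-180622189 (Col9a3), chr10:34389981-34397085 (Col10a1), chr3:114030540-114220718 (Col11a1) and chr17:34039437-34066685 (Col11a2). Their coding sequences differ in the length of the unbroken stretch in which glycine codons recur 3 codons apart. That stretch held 339 repeats in Col2a1 and 338 in each of Col11a1 and Col11a2, against 113 in each type IX gene and 60 in Col10a1. Col10a1 was also the gene with the fewest exons in its longest coding transcript, 3 against 32 to 67 in the other genes. All annotated exons were counted together, so the values do not separate transcript forms such as those that start at the alternative promoter of Col9a1.

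Promoter sequences were matched in RefSeq (GRCm38.p6) for 5 of the 7 genes, Col2a1 and Col9a3 having no entry. The RefSeq start of Col11a2 lies upstream of its GENCODE start. Of these, the 250 bases before the start are printed for 4 genes whose courses went apart, namely Col9a1 and Col11a2, which ended far lower with CD1530, Col11a1, which rose in both conditions, and Col10a1, which ended higher with CD1530. The windows are chr1:24177360-24177609, chr17:34038888-34039137, chr3:114030290-114030539 and chr10:34389731-34389980, all on the plus strand, and capitals mark the motifs named in the next paragraph.
Col9a1: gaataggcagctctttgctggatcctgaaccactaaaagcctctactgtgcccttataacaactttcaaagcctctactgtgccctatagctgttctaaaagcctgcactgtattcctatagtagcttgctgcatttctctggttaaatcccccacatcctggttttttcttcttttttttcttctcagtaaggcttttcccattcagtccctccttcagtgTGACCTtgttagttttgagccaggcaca
Col11a2: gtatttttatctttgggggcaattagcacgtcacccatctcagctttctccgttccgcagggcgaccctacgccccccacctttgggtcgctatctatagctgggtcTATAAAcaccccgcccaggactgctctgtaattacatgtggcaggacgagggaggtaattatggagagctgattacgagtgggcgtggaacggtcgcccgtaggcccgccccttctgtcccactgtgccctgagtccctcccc
Col11a1: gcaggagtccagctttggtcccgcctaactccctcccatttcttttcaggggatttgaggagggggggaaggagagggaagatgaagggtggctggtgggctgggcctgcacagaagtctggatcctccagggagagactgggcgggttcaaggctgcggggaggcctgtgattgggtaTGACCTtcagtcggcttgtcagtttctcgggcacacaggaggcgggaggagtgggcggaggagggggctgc
Col10a1: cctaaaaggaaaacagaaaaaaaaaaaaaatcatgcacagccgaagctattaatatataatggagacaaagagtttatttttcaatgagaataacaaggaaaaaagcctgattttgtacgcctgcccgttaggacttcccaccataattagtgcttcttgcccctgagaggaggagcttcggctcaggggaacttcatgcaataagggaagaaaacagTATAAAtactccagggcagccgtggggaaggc

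The motifs searched on both strands, over 300 bases that include 50 after the start, were AACAAT, a core letter order bound by Sox proteins, TATAAA, the TATA box, and AGGTCA, the hexamer bound by retinoic acid receptors, alone or as a direct repeat with 5 or 2 bases between. TATAAA was present in Col10a1 at position -32 and in Col11a2 at position -143, and it is found in 13.6% of the 32851 mouse promoters of the same length. A single hexamer, read as TGACCT, was present in Col11a1 at position -71 and in Col9a1 at position -28, against 16.3% of all promoters. Col9a1 had 2 promoters in RefSeq, of which the first is printed. The second, with its window starting at chr1:24194953, held no motif, 1 CpG and 55.7% G and C. None of the 5 genes held AACAAT (10.7% of all promoters) or a spaced repeat (0.00913% for each spacing). The first Col9a1 window held no CpG and 47.3% G and C, and that of Col10a1 held 6 CpG and 44.3%. The window of Col11a2 held 16 CpG and 59.0%, and that of Col11a1 held 9 CpG and 62.3%. Medians over all promoters were 7 CpG and 52.7%. Each of the 2 motifs found was present in a gene far lower with CD1530 and in a gene with another course. Any part of these motifs in the courses was not tested.

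Library totals ran from 17116084 to 22775275 counts apart from 1 AGN 193109 library at D8.5, which held 38120841. Levels are given as CPM, the counts of a gene relative to the total of its library, after scaling by trimmed mean of M values (TMM), and 3 counts over a group of 3 libraries equalled 0.0398 to 0.0607 CPM. Library 1 of CD1530 at D6.75 stood apart over all genes. The chi-square per gene between its counts and those of the other 2 libraries of its group was 20.3 and 21.5, against 1.58 to 4.76 for the other 31 pairs of libraries of a group. The ligands were checked on 6 retinoid response genes, of which 5 were higher with CD1530 at D10, against 22.7% of all genes, and 1 was not called. Their summed level was 926 to 939 CPM with CD1530 and 165 to 175 CPM with AGN 193109. Tests are the quasi-likelihood test of edgeR with Benjamini-Hochberg adjustment over all 17120 genes, a gene counting as changed at an adjusted p under 0.05. The labels do not say that replicates came from separate cultures, although the study's methods name them biological replicates.

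At D10, the 6 genes of the types II, IX and XI were lower with CD1530 and Col10a1 alone was higher. The share of all genes called lower in that comparison was 24.0% and the share called higher was 22.7%, and the median log2 fold change was -3.77 over the 7 genes against -0.02 over all genes tested. Col2a1, the chain of the main fibrils, was at 141, 146 and 149.7 CPM in the CD1530 libraries and at 2545, 2529 and 2418 CPM in the AGN 193109 libraries. Its mean was thus 17.2-fold higher with AGN 193109, a log2 difference of -4.10 ± 0.05 (SE) for CD1530 minus AGN 193109 (adjusted p = 2.7e-42, edgeR). None of the 7 genes had overlapping libraries between the conditions at D10, as was the case for 57.0% of all genes. In these bulk libraries, fewer cells of a type and less RNA per cell cannot be told apart.

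The type IX chains, which assemble 1 to 1 to 1 in the protein, differed by unequal amounts. Col9a3 had the largest difference of the 7 genes, with 18.1, 15.9 and 16.9 CPM in CD1530 against 395, 374 and 379 CPM in AGN 193109, which is 22.6-fold (log2 -4.50 ± 0.07, adjusted p = 3.9e-38, edgeR). Col9a1 was at 12.1, 12.1 and 13.2 CPM in CD1530 and at 170.3, 172 and 169 CPM in AGN 193109, 13.7-fold apart (log2 -3.77 ± 0.06). Col9a2 was at 67.8, 63.5 and 71.8 CPM in CD1530 and at 379, 366 and 360.4 CPM in AGN 193109, 5.44-fold apart (log2 -2.44 ± 0.06). Expressed as a share of the AGN 193109 mean, the CD1530 libraries held 4.42% of Col9a3, 7.32% of Col9a1 and 18.4% of Col9a2. The exons of Col9a3 share 234 bases with those of Tcfl5 on the other strand, and the strand setting of the counting is not given in the sources used here. At D10 Tcfl5 was slightly higher with CD1530, at 19.1 ± 1.53 against 14.7 ± 0.656 CPM (SD, n = 3), the opposite direction to Col9a3. Within CD1530, however, Tcfl5 fell from 32.2 ± 0.441 CPM at D8.5, the same direction as Col9a3 in that step. With AGN 193109 it fell from 17.4 ± 1.26 CPM while Col9a3 rose. Any carry-over of counts between the 2 genes was not tested.

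The type XI chains parted the most from each other. Col11a2 was at 4.45, 2.86 and 3.37 CPM in CD1530 and at 67.1, 69.1 and 68.0 CPM in AGN 193109, 19.1-fold apart (log2 -4.25 ± 0.12, adjusted p = 1.3e-28, edgeR). Col11a1 was at 515, 522 and 517 CPM in CD1530 and at 936, 954 and 902 CPM in AGN 193109, only 1.80-fold apart (log2 -0.85 ± 0.05, adjusted p = 1.7e-17, edgeR). With CD1530, Col11a1 thus kept 55.6% of the AGN 193109 level, the most of the 6 lower genes.

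Col10a1, the marker of hypertrophic chondrocytes, was scarce throughout and rested on few counts. In PM all 3 libraries had 0 counts, which allows up to 0.0495 CPM over the group. At D10 the CD1530 libraries held 66, 57 and 70 counts and the AGN 193109 libraries 22, 26 and 25 counts, equal to 3.33, 3.14 and 3.94 CPM against 1.38, 1.57 and 1.49 CPM. The summed counts were 2.34-fold higher with CD1530 (95% Clopper-Pearson interval 1.78 to 3.11, covering counting error only), and the fit gave a log2 difference of 1.23 ± 0.25 (adjusted p = 0.00011, edgeR). The same direction was called at D8.5, with 13, 13 and 15 counts in CD1530 and 14, 5 and 4 counts in AGN 193109, where the library with 14 counts was the deep one. At D8.5 these were 0.726, 0.692 and 0.884 CPM against 0.379, 0.255 and 0.212 CPM, a count ratio of 2.51 (1.47 to 4.37) and a log2 difference of 1.32 ± 0.41 (adjusted p = 0.0082, edgeR). Without the deep library the log2 difference was 1.68 ± 0.51 (adjusted p = 0.0092, edgeR). Before D8.5 no library held more than 6 counts, and the test called no difference. Nt5dc1, whose exons share 18 bases with Col10a1 on the other strand, was at 11.1 ± 2.11 CPM with CD1530 and 11.1 ± 0.473 CPM with AGN 193109 at D10 (SD, n = 3).

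**Figure D1:**
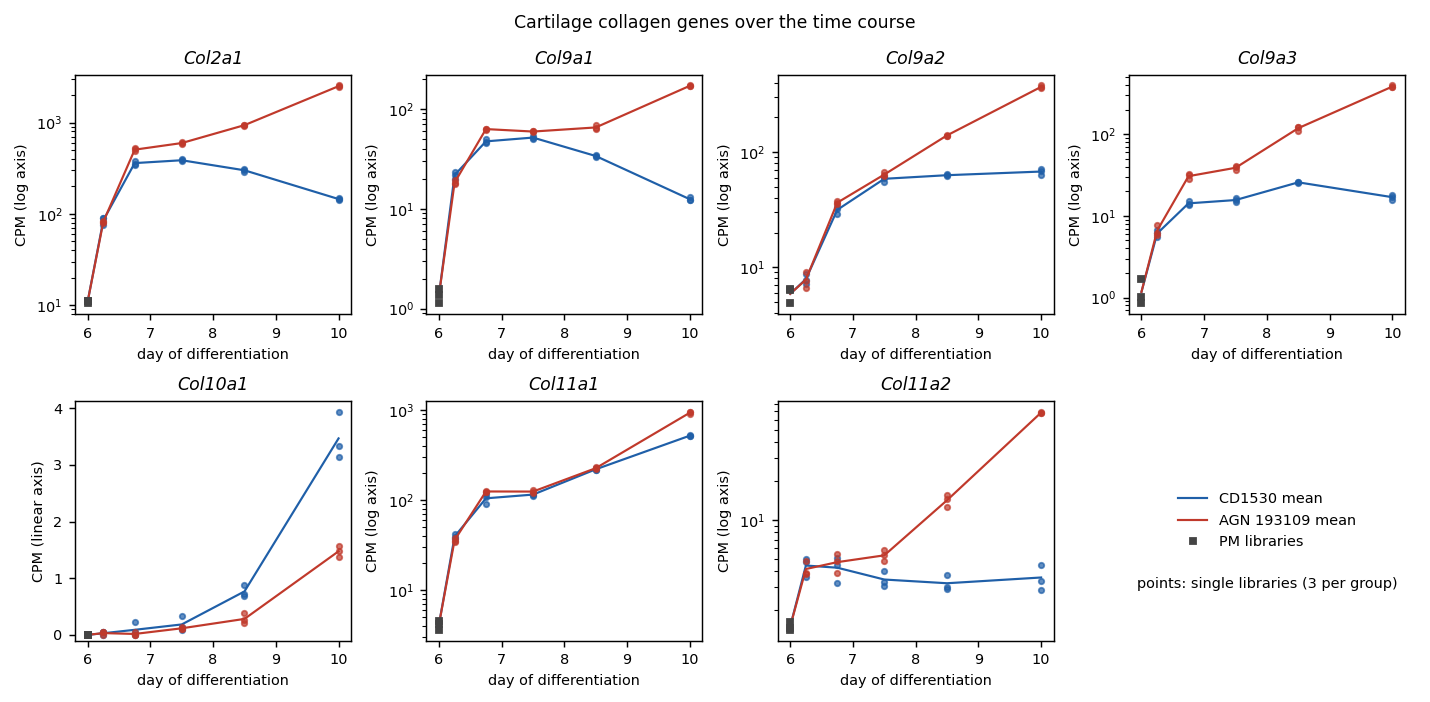
CPM of each gene against the day of differentiation, on log axes except for Col10a1 on a linear axis, with a point per library, lines through the means and PM at D6 shared by both conditions. The conditions run together at D6.25, Col2a1, Col9a1, Col9a3 and Col11a2 part by 13.7-fold or more by D10, Col11a1 rises in both, and Col10a1 is higher with CD1530.

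The times of sampling showed when each gene parted. At D6.25, after 0.25 days of ligand, Col9a1 was the only gene of the 7 called, and it was higher with CD1530 (21.97, 23.4 and 19.9 CPM against 18.0, 19.3 and 17.7 CPM, log2 0.25 ± 0.06, adjusted p = 0.020, edgeR), where 1.23% of all genes were called higher and 0.695% lower. This call was lost when CD1530 library 1 or 2 or AGN 193109 library 1 or 3 was left out (adjusted p 0.073 to 0.18, edgeR) or with the libraries thinned to the smallest total (adjusted p = 0.16, edgeR). For Col2a1 at the same time the 95% interval of the log2 difference ran from -0.03 to 0.15. At D6.75, 5 of the 7 genes were lower with CD1530, against 10.0% of all genes, and none was higher, against 7.94%. The largest difference there was again that of Col9a3, with 14.0, 15.0 and 13.7 CPM in CD1530 and 27.9, 32.6 and 31.3 CPM in AGN 193109 (log2 -1.10 ± 0.08, adjusted p = 9.1e-15, edgeR). Col2a1 (log2 -0.49 ± 0.04), Col9a1 (-0.41 ± 0.05), Col11a1 (-0.25 ± 0.05) and Col9a2 (-0.21 ± 0.07) were called with smaller differences, and Col11a2 was not (-0.15 ± 0.15, adjusted p = 0.57, edgeR).

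In the CD1530 library that stood apart over all genes at D6.75, Col11a1 was at 90.2 CPM, against 108 and 116 CPM in the other 2. Without that library, the Col11a1 difference at D6.75 was -0.16 ± 0.04 (adjusted p = 0.0023, edgeR), that of Col9a3 was -1.09 and that of Col2a1 was -0.46, and all 5 calls stood. When only the 6 libraries of D6.75 entered the fit, 3 of the 5 calls stood, those of Col9a2 and Col11a1 being lost (adjusted p = 0.17 and 0.13, edgeR). The Col9a2 call was also lost without library 2 of CD1530 (adjusted p = 0.13, edgeR), without library 2 of AGN 193109 (0.090) and with thinned libraries (0.053).

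At D7.5, 4 of the 7 genes were lower with CD1530, against 11.8% of all genes, and none was higher, against 15.2%. Col9a3 (log2 -1.31 ± 0.08), Col2a1 (-0.62 ± 0.04) and Col9a1 (-0.20 ± 0.05) were joined by Col11a2, at 3.97, 3.29 and 3.03 CPM against 5.79, 5.35 and 4.74 CPM (-0.63 ± 0.16, adjusted p = 0.0023, edgeR). The intervals for Col9a2 (-0.24 to -0.01) and Col11a1 (-0.21 to -0.01) lay just below 0, but neither passed the adjusted threshold (adjusted p = 0.12 for each, edgeR). At D8.5, 5 of the 7 genes were lower with CD1530 and 1 was higher, against 19.6% and 20.4% of all genes. Col9a3 (-2.20 ± 0.07) and Col11a2 (-2.15 ± 0.14) led, followed by Col2a1 (-1.64 ± 0.04), Col9a2 (-1.15 ± 0.06) and Col9a1 (-0.95 ± 0.05). Col11a1 was at 216, 217 and 225 CPM in CD1530 and at 224, 223 and 230.4 CPM in AGN 193109, so the groups overlapped, and the interval of its log2 difference was -0.14 to 0.06. Col9a3, Col2a1 and Col9a1 were thus called lower at every time from D6.75 on and Col11a2 from D7.5 on. Col9a2 was called lower at D6.75, D8.5 and D10, and Col11a1 at D6.75 and D10, where the D6.75 calls of both were lost with only the groups compared. That alternative instead called both lower at D7.5 (adjusted p = 0.028 for Col9a2 and 0.013 for Col11a1, edgeR). A gene length correction also called Col11a1 lower at D7.5 (log2 -0.18, adjusted p = 6.8e-05, edgeR) and at D8.5 (-0.11, adjusted p = 0.0057, edgeR).

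**Figure D2:**
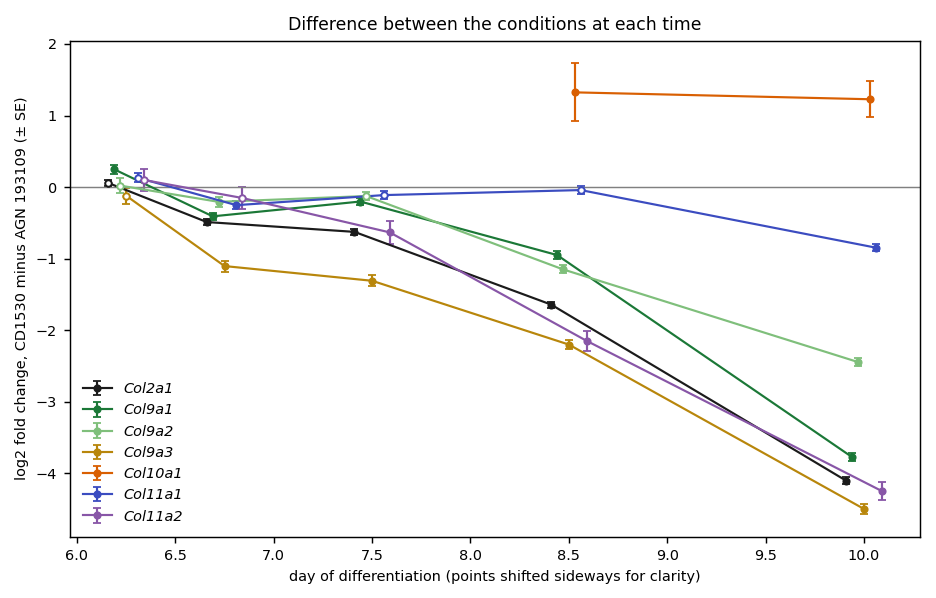
Log2 fold change of CD1530 minus AGN 193109 (± SE from edgeR, 3 libraries per group) against the day of differentiation, with open points where the adjusted p was 0.05 or more and Col10a1 drawn from D8.5 on, where it held enough counts. Col9a3 leads at D6.75 with -1.10, 4 genes reach -3.77 or lower at D10, Col11a1 stays between -0.25 and 0.13 until D8.5, and Col10a1 lies above 0.

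Within each condition the genes began with a common rise. From PM to D6.25, 6 of the 7 genes rose in CD1530 (34.5% of all genes rose) and 6 rose in AGN 193109 (35.0% of all genes), Col10a1 being the exception in both. Col9a1 rose 16.0-fold to 21.8 ± 1.78 CPM in CD1530 and 13.5-fold to 18.3 ± 0.851 CPM in AGN 193109 (SD, n = 3), while Col9a2 rose 1.34-fold and 1.33-fold. The comparisons with PM share the PM libraries. From D6.25 to D6.75, 5 genes rose in each condition (25.8% and 24.9% of all genes rose), all but Col10a1 and Col11a2. In this step Col2a1 rose 4.22-fold in CD1530 and 6.15-fold in AGN 193109, and Col9a2 rose 4.00-fold and 4.66-fold.

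In AGN 193109 after D6.75, 3 genes rose from D6.75 to D7.5 (14.2% of all genes), namely Col9a2, Col9a3 and Col2a1, while Col9a1 was at means of 62.8 and 59.3 CPM and Col11a1 at 125 and 124 CPM and neither was called. Then 6 rose to D8.5 (21.4% of all genes) and all 7 rose to D10 (29.9% of all genes). In the last step Col11a2 rose 4.80-fold, Col11a1 4.12-fold, Col9a3 3.23-fold, and Col2a1, Col9a2 and Col9a1 2.67-fold, 2.64-fold and 2.61-fold. The Col9a1 rise from D7.5 to D8.5, at 1.10-fold, was lost under 4 of 16 alternatives. These were library totals as the only scaling (adjusted p = 0.46, edgeR), thinned libraries (0.071), and leaving out AGN 193109 library 3 at D7.5 (0.085) or library 2 at D8.5 (0.18).

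With CD1530 the genes went separate ways. From D6.75 to D7.5 only Col9a2 and Col11a1 were called, both higher (18.7% of all genes rose), and the Col11a1 call, at 1.10-fold, was lost under 9 of 16 alternatives, among them leaving out the library that stood apart (adjusted p = 0.49, edgeR). Without that library Col9a1 was also called higher in this step (log2 0.16 ± 0.05, adjusted p = 0.016, edgeR). From D7.5 to D8.5, Col11a1, Col9a3 and Col10a1 rose (18.8% of all genes) while Col2a1 and Col9a1 fell (17.7% of all genes). From D8.5 to D10, Col11a1 and Col10a1 rose (27.4% of all genes) and Col2a1, Col9a1 and Col9a3 fell (29.9% of all genes). Col2a1 fell from 300.0 ± 8.91 CPM at D8.5 to 145 ± 4.39 CPM at D10, after a highest mean of 386 ± 7.27 CPM at D7.5 (SD, n = 3). Col9a1 went from 51.6 ± 1.65 CPM at D7.5 to 33.8 ± 0.563 and 12.5 ± 0.600 CPM, ending below its own level at D6.25 without overlap of the libraries. Col9a3 peaked later, at 25.7 ± 0.220 CPM at D8.5, and ended at 16.9 ± 1.12 CPM. Col9a2 was called neither from D7.5 to D8.5 nor from D8.5 to D10, with means of 58.6, 62.9 and 67.7 CPM. Its libraries at D10 (63.5 to 71.8 CPM) lay above those at D7.5 (55.2 to 60.9 CPM), a change over both steps that was not tested. Col11a2 was not called in any step after D6.25 in the main fit, and its group means stayed between 3.21 and 4.41 CPM. Its fall from D6.75 to D7.5 was called under 2 alternatives. These were leaving out the library that stood apart (log2 -0.48 ± 0.16, adjusted p = 0.020, edgeR) and the gene length correction (-0.38, adjusted p = 0.047, edgeR).

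The change from D8.5 to D10 itself differed between the conditions for 6 genes, against 26.8% of all genes. The difference in log2 change, CD1530 minus AGN 193109, was -2.82 ± 0.08 for Col9a1, -2.46 ± 0.06 for Col2a1, -2.30 ± 0.10 for Col9a3, -2.10 ± 0.21 for Col11a2, -1.30 ± 0.08 for Col9a2 and -0.80 ± 0.07 for Col11a1. Col10a1 rose 4.53-fold (3.22 to 6.51) in CD1530 and 4.84-fold (3.00 to 8.11) in AGN 193109 by summed counts in this step, and its difference of -0.10 ± 0.43 had an interval from -0.94 to 0.75. Over all 5 times, the interaction of condition with time was called for the same 6 genes (48.8% of all genes were called), and for Col10a1 the adjusted p was 0.75 (edgeR).

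Every gene ended above PM in both conditions, where 43.3% of all genes rose with CD1530 and 41.6% with AGN 193109. Col9a3 was 326-fold above PM with AGN 193109 and 14.4-fold with CD1530, Col2a1 228-fold and 13.3-fold, Col9a1 125-fold and 9.16-fold, Col9a2 62.9-fold and 11.6-fold, and Col11a2 46.0-fold and 2.40-fold. Col11a1 was 223-fold and 124-fold above PM. Set against the limit of 3 counts over the PM group, Col10a1 was at least 70.0-fold higher with CD1530 and at least 29.8-fold higher with AGN 193109.

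Ordered by level over the 11 groups, Col2a1, Col9a1, Col9a2, Col9a3, Col11a1 and Col11a2 were each highest in AGN 193109 at D10 and lowest in PM. For Col2a1 the next places were AGN 193109 at D8.5, D7.5 and D6.75, all above every CD1530 group, and the neighbours that overlapped were CD1530 at D7.5 and D6.75, and the conditions at D6.25. For Col9a1, AGN 193109 at D8.5 and D6.75 overlapped, at means of 65.2 and 62.8 CPM, with D7.5 below both at 59.3 CPM. For Col9a2 the groups CD1530 at D10, AGN 193109 at D7.5 and CD1530 at D8.5 overlapped in turn, at 67.7, 63.8 and 62.9 CPM. For Col11a2 the 8 groups ranked between AGN 193109 at D8.5 and PM overlapped in turn, from 5.29 to 3.21 CPM, and only AGN 193109 at D8.5 (14.2 ± 1.49 CPM) and D10 (68.0 ± 0.995 CPM) stood above them. For Col11a1 the order followed the day more than the ligand, with D10 above D8.5 and D8.5 above all earlier groups in both conditions.

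Levels between genes can be compared only per length, here as CPM divided by the kilobases of all annotated exons (RPKM). In AGN 193109 at D10 the levels were 270.2 ± 7.51 RPKM for Col2a1, 119 ± 3.12 for Col9a2, 99.3 ± 2.82 for Col9a3, 73.0 ± 2.05 for Col11a1, 33.6 ± 0.292 for Col9a1, 9.90 ± 0.145 for Col11a2 and 0.471 ± 0.0305 for Col10a1 (SD, n = 3). In CD1530 at D10 the first place passed to Col11a1, at 40.6 ± 0.286 RPKM, before Col9a2 at 21.9 ± 1.34 and Col2a1 at 15.7 ± 0.474 RPKM. The order of the last 2 turned with the longest transcript as length, Col2a1 then being at 28.5 ± 0.859 and Col9a2 at 23.2 ± 1.42 RPKM. Col11a1 made up 46.9% of the summed RPKM of the 7 genes in CD1530 at D10 and 12.1% in AGN 193109, and Col2a1 18.1% and 44.6%. With the longest transcript as length, Col11a1 made up 52.1% and 13.2%, and Col2a1 21.96% and 53.3%. The sum of the 7 genes was 767 ± 7.35 CPM in CD1530 and 4419 ± 106 CPM in AGN 193109.

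**Figure D3:**
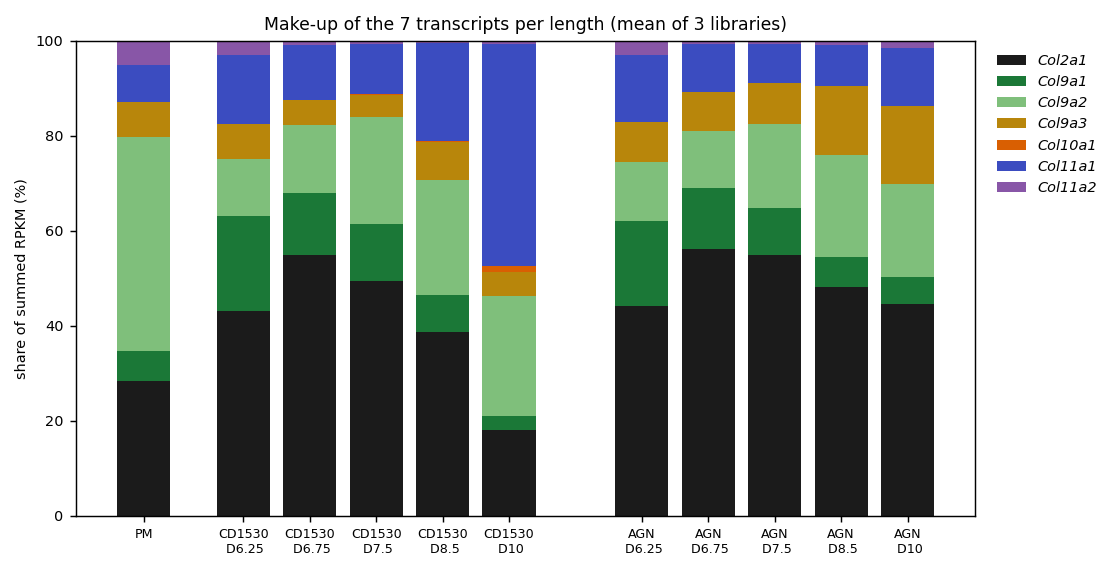
Share of each gene in the summed RPKM of the 7 genes (percent, mean of 3 libraries) in PM and at the 5 times in each condition. At D6.25 the conditions lie close, with Col2a1 at 43.1% and 44.1%, and at D10 Col11a1 holds 46.9% with CD1530 against 12.1% with AGN 193109.

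Ratios between chains within a library do not depend on the scaling of the libraries. Together, 6 ratios at 5 times gave 30 comparisons between the conditions, each by a two-sided exact permutation test on log2 ratios of 3 against 3 libraries, where the smallest possible p is 0.10, so none could pass 0.05 and the smallest adjusted p was 0.15. Col11a1 to Col2a1 was 2.65, 2.60 and 2.50 in CD1530 at D10 and 0.267, 0.274 and 0.271 in AGN 193109, a difference of 3.26 in log2 ratio or 9.56-fold with no overlap (exact p = 0.10). At D8.5 the ratio was 0.531 ± 0.0103 against 0.175 ± 0.00292, and at D6.25 it was 0.337 ± 0.0191 against 0.319 ± 0.0188 with overlap (SD, n = 3). Col11a2 to Col2a1 was lower with CD1530 at D8.5 without overlap, at 0.0144 ± 0.00184 against 0.0204 ± 0.00174 (0.705-fold, exact p = 0.10). At the other 4 times this ratio overlapped between the conditions, at D10 with 0.0331 ± 0.00833 against 0.0367 ± 0.00118. Col11a1 to Col11a2 was 62.5, 98.4 and 82.7 in CD1530 and 7.52, 7.45 and 7.16 in AGN 193109, 10.8-fold apart (exact p = 0.10), after 4.90 ± 0.691 and 4.76 ± 0.688 at D6.25.

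The type IX chains also left their early proportions. Col9a3 to Col9a2 was 0.214, 0.200 and 0.189 in CD1530 at D10 and 0.837, 0.821 and 0.845 in AGN 193109 (exact p = 0.10), and the groups were already apart at D6.75, at 0.366 ± 0.0445 against 0.677 ± 0.0412 (SD, n = 3). Col9a1 to Col9a2 was lower at D10 than at D6.25 in both conditions, going from 1.70 ± 0.174 to 0.112 ± 0.00368 in CD1530 and from 1.46 ± 0.195 to 0.282 ± 0.00696 in AGN 193109. The sizes of these ratios depend on the length used: with the longest transcript, Col9a3 to Col9a2 in AGN 193109 at D10 was 0.997 in place of 0.834, and Col11a1 to Col11a2 in CD1530 was 119 in place of 81.2. The fold between conditions does not, since a length cancels out of it.

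**Figure D4:**
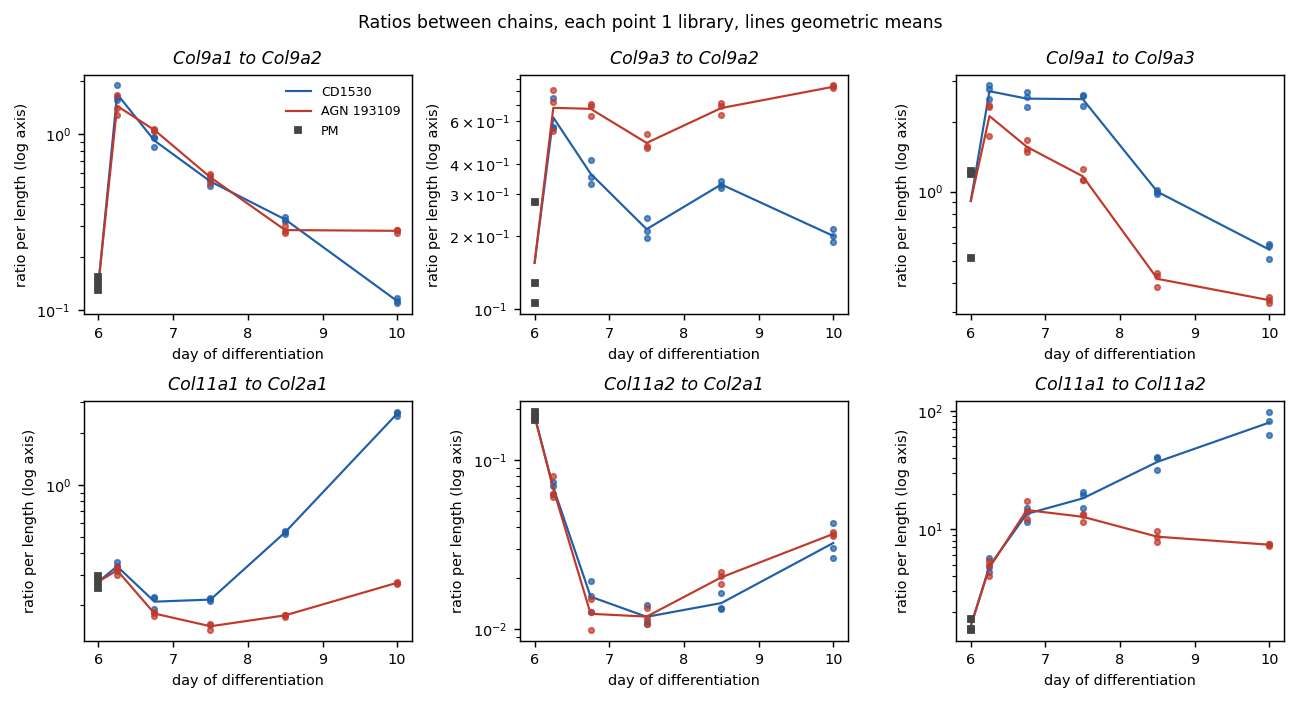
Ratios per length (RPKM over RPKM, log axes) of 6 gene pairs against the day of differentiation, a point per library and lines through geometric means, with PM shared. Col11a1 to Col2a1 ends at a mean of 2.58 with CD1530 and 0.270 with AGN 193109, and Col11a2 to Col2a1 overlaps between the conditions at every time after PM except D8.5, at 0.0144 against 0.0204.

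The courses of the 7 genes were compared by Pearson's r over the 11 group means of log2(CPM + 1), given as a description, since the groups share their days and their PM starting point. Col2a1 and Col9a1 were the most alike, with r = 0.97, followed by Col2a1 and Col9a3 (0.94) and Col9a2 and Col9a3 (0.93). Col10a1 was least like Col9a1 (0.09) and Col2a1 (0.25) and most like Col11a1 (0.71). This order depended on the measure. By ranks (Spearman's rho), Col10a1 was most like Col9a2 (0.855), before Col11a1 (0.827), and least like Col11a2 (0.173). Among the other genes with a mean of at least 1 CPM, those closest to Col2a1 were Bmp5 (0.99), Wipf1 (0.98), Fbln2 (0.98) and Thbs3 (0.97), then Col9a1. Col9a1 was followed most closely by Col2a1 (0.97), Sox6 (0.96), Fbln2 (0.96), Zic4 (0.96) and Bmp5 (0.95). Closest to Col9a2 were Trps1, Ppm1m, Cdh24, Igf2r and Rasl11b (0.98 to 0.99), and to Col9a3 were Adamtsl2 (0.99), Fam163b, Chst1, Chad and Lrrn2 (0.97 to 0.98). Col11a1 had near neighbours in Papss1, Slc22a17, Senp7, Emilin1 and Selenon (0.996 to 0.997), and Col11a2 in Aqp1 (0.99), Lpar4 (0.98), Susd5 (0.97), Mamstr (0.97) and Clec3a (0.96). For the scarce Col10a1 they were Trim11, Dcxr, Ccng1, Lrrc28 and Klrg2 (0.98 to 0.99).

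Other genes of collagen and cartilage biology gave a setting for these differences at D10. Of 12 measured noncollagen genes of the cartilage matrix, 10 were lower with CD1530, 1 was higher and 1 was not called, with a median log2 fold change of -1.83. The lowest was Acan, which encodes the proteoglycan aggrecan, at 4.66 ± 0.674 against 215 ± 11.9 CPM (log2 -5.53 ± 0.09), and the highest was Cilp2, at 11.7 ± 0.0854 against 3.34 ± 0.451 CPM (1.81 ± 0.15). Among 16 chondrogenic regulators, 14 were lower and 2 higher, with a median of -1.24, from Sox6 (-2.49 ± 0.11), the partner of Sox9, to the homeobox gene Barx2 (2.44 ± 0.39). Over all genes, 24.0% were lower and 22.7% higher.

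The genes that process or bind collagen differed less, and their counts stand beside the same 24.0% of all genes lower and 22.7% higher. Of 26 genes of collagen synthesis, 19 were lower, 2 higher and 5 not called, with a median of -0.33, between Pcolce2, an enhancer of propeptide removal (-1.72 ± 0.24), and the prolyl hydroxylase P3h2 (1.29 ± 0.14). Of 7 collagen receptors, 1 was lower, the integrin subunit Itga11 (-1.88 ± 0.07), 2 were higher, with Itga2 the highest (0.83 ± 0.21), and 4 were not called. Of 8 collagens of tendon and other fibrils, 4 were lower, 2 higher and 2 not called, with a median of -0.29, between Col24a1 (-1.58 ± 0.20) and Col27a1 (0.73 ± 0.06). Of 5 measured fibril-associated collagens besides type IX, 2 were lower, led by Col16a1 (-0.88 ± 0.09), and 2 higher, led by Col22a1 (1.23 ± 0.13). Among 10 measured genes of hypertrophy and mineralization, 6 were higher with CD1530, 2 were lower and 2 were not called, with a median of 0.37. They lay between Sp7, a factor of bone-forming cells (-3.25 ± 0.26), and the phosphatase gene Alpl (2.40 ± 0.06).

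**Figure D5:**
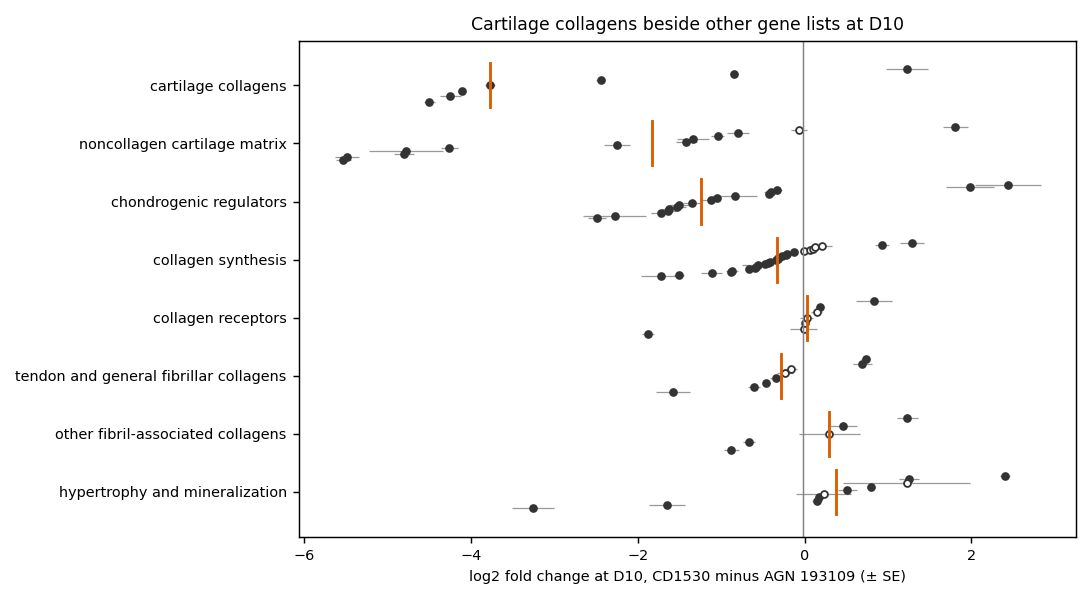
Log2 fold change of CD1530 minus AGN 193109 at D10 (± SE) for each gene of 8 lists, with open points where the adjusted p was 0.05 or more, an orange line at each list's median and a grey line at the median of all genes. The cartilage collagens have a median of -3.77, the noncollagen cartilage matrix -1.83, and the collagen receptors 0.02.

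Markers of other cell types moved between the conditions as well, where 24.0% of all genes were lower and 22.7% higher at D10. Of 7 measured chondrocyte markers, 7 were lower with CD1530 at D10, and their summed level was 92.1 to 99.4 CPM against 565 to 586 CPM. All 7 also stand in the lists of the matrix and regulators. Of 8 notochord markers, 5 were lower and 3 higher, and the summed level overlapped between the conditions, at 167 to 177 against 174 to 181 CPM. Those higher were the keratins Krt8 (log2 0.38 ± 0.05), Krt18 (0.78 ± 0.05) and Krt19 (0.85 ± 0.09). Those lower included T (0.503 ± 0.140 against 27.1 ± 0.542 CPM) and Noto (0 counts in the 3 CD1530 libraries, 2.33 ± 0.609 CPM in AGN 193109). These 5 markers were named after their values were seen. Of 8 neural markers, 7 were higher with CD1530, at a summed 166 to 179.6 against 98.1 to 103 CPM, with Neurog2 at 0 counts in AGN 193109. Of 5 measured tendon markers, 4 were lower with CD1530, at 1435 to 1480 against 3933 to 4182 CPM, and Mkx was not called. Osteoblast markers summed to 90.2 to 99.7 CPM with CD1530 and 29.7 to 36.9 CPM with AGN 193109, 3 of 4 being higher and Sp7 lower. Their sum was larger still in PM, at 407 to 440 CPM, although most of the list did not fall from PM. Against PM, 2 of the 4 were higher at D10, 1 was lower and 1 was not called, in each condition. Endothelial markers summed to 150.5 to 166 against 138 to 147 CPM, 3 of 5 being higher with CD1530, 1 lower and 1 not called. Muscle markers summed to no more than 2.02 CPM in either condition, 1 of 3 measured being higher, 1 lower and 1 not called. PM markers summed to 89.2 to 93.8 against 74.1 to 78.0 CPM, above the 31.1 to 34.5 CPM of the PM libraries themselves. Of these 4 markers, 2 were higher with CD1530 than with AGN 193109 and 2 were not called. Against PM, 2 were higher and 2 lower with CD1530, and 1 was higher and 3 lower with AGN 193109. The part of any of these cell types in the collagen differences was not tested. Col2a1, Col9a1, Col9a2, Col9a3 and Col11a2 are in a gene module that had been assembled from these same libraries, so their shared course is no independent evidence of its direction.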

How the data were processed

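Bulk RNA was sequenced from 33 libraries in 11 groups of 3. Per the study's methods, libraries were made with a NEBNext Ultra kit, aligned with STAR to GRCm38 and counted per gene with featureCounts. The deposited values are raw counts per gene, unnormalized, as the authors made them. Groups were taken from the sample labels, and D6 stands for the start of induction.

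Counts of 17120 genes were fitted with edgeR 4.0.16 (R 4.3.3) by the robust quasi-likelihood test with TMM scaling and a mean per group over all 33 libraries, and p-values were adjusted within each comparison. The filter for low counts removed no gene. Totals of 17116084 to 38120841 counts made 3 counts over a group worth 0.0398 to 0.0607 CPM, and low genes carry counting error. DESeq2 1.42.0 and SciPy 1.17.1 served for alternatives and for exact tests. RPKM used the union of GENCODE M21 exons. On simulated data for the D10 comparison with 17096 genes, the fit recovered 40 of 50 genes changed 1.5-fold, 49 of 50 changed 2-fold, 50 of 50 changed 4-fold and 47 of 50 lowered to 0.25, with 7 false calls in all. There the conditions differed only in these genes, drawn from those with a mean of at least 1 CPM. In the real comparison 24.0% of genes were called lower and 22.7% higher. The recovery and false calls may therefore differ in the real comparison and for scarcer genes.

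The members and gene lists were chosen with earlier results of these data known. Other genes are named as the 5 most alike to each member, or as the called list members with the highest and lowest change at D10, while T, Noto, Krt8, Krt18, Krt19, Neurog2, Mkx and the genes that overlap members were named outside this rule, after their values were seen. Protein sequences were not compared here. Alternatives were other scalings, filters, DESeq2, a non-robust fit, only the groups compared, a replicate block, thinning to the smallest library, a gene length correction and leaving out each library.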

Additional observations from a re-analysis of the deposited data

Results flagged for a closer look

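The change from D8.5 to D10 differed between CD1530 and AGN 193109 for 6 of the 7 genes by the test of the difference itself in edgeR. Among all genes 26.8% were called in that test. The log2 difference of the changes, CD1530 minus AGN 193109, was -2.46 for Col2a1, -2.82 for Col9a1, -1.30 for Col9a2, -2.30 for Col9a3, -0.80 for Col11a1 and -2.10 for Col11a2. In AGN 193109 all 6 genes rose in this step. With CD1530, Col2a1, Col9a1 and Col9a3 fell, Col11a1 rose, and Col9a2 and Col11a2 were not called. Dixon's test for single values far from the rest of a group was not applied, since each group held 3 libraries.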

How the results depend on the processing

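Of 126 fold changes of single genes, 93 were called, 88 of these stood under all alternatives run for them, 5 lost the call under some, and 0 changed sign. The counts of genes lower and higher at D8.5 and D10, and of genes with a differing last step, kept within 1.5 times under all alternatives. At D6.25 the count of genes higher with CD1530 was 0 with thinned libraries, 2 with the gene length correction (Col11a1 added) and 0 to 1 without single libraries. At D6.75 the count lower was 3 with only the groups compared and 4 to 5 without single libraries. For CD1530 from D6.75 to D7.5, the count higher was 1 with DESeq2 size factors, library size only, DESeq2, the gene length correction or only the groups compared, 1 to 3 without single libraries and 4 with the replicate block, which adds Col2a1 and Col9a1. In that step the count lower was 1 with the gene length correction and 0 to 1 without single libraries. The cause was not tested. The replicate block changed no other count. Replicate numbers did not pair the samples: the mean correlation of deviations was -0.00244 between libraries of the same number and 0.00130 between others, and 11 of 33 libraries correlated best with their own number.

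Signs reversed for 11 fold changes, none of them called. Without single libraries the log2 difference at D6.25 was -0.089 to 0.15 for Col9a2, -0.20 to 0.0046 for Col9a3 and -0.55 to 0.39 for Col10a1. At D6.75 it was -0.29 to 0.0056 for Col11a2, and at D7.5 -0.058 to 0.92 for Col10a1. With CD1530 it was -0.37 to 1.92 for Col10a1 and -0.20 to 0.094 for Col11a2 from D6.25 to D6.75, -0.20 to 0.029 for Col11a2 from D7.5 to D8.5 and -0.048 to 0.29 from D8.5 to D10. With AGN 193109 it was -0.038 to 0.030 for Col11a1 from D6.75 to D7.5, where library size only gave 0.0030 and only the groups compared 0.0014. The difference of the last steps was -0.46 to 0.032 for Col10a1. Of the 30 named like genes with a rank, 30 stayed among the first 50 over single libraries, 17 by Spearman's rho and 11 on linear CPM. Counting error limits Col10a1 before D8.5 and Col11a2 with CD1530.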
